A study of Mus musculus with 6 samples.

Results

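The platelet-derived growth factor (PDGF) genes examined here are the ligands *Pdgfa*, *Pdgfb*, *Pdgfc* and *Pdgfd*, the receptors *Pdgfra* and *Pdgfrb*, and the receptor-like gene *Pdgfrl*. They were taken by symbol from the deposited count table, which held all 7 among its 25140 genes, and all 7 passed the filter on low counts. Expression was measured by RNA-seq of poly(A) mRNA in primary cardiac fibroblasts of C57BL/6 mice at passage 1, in 3 vehicle cultures and 3 cultures given 10 ng/ml TGFβ, a cytokine that drives fibroblasts towards contractile, matrix-secreting myofibroblasts. Both groups were wild type and were held in 1% FBS for the 24 h of treatment, after a step down from 10% FBS that lasted 16 h by the sample labels and 24 h by the study's methods. The labels place the cells in the adult heart, and the study's methods also name cardiac fibroblasts, while its results call the same cultures MEFs (mouse embryonic fibroblasts). The age and sex of the mice and the number of hearts per culture are not given in the sources used here. The study's methods call the libraries biological replicates.

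PDGF ligands are disulfide-linked dimers that bring a pair of receptor chains together and so switch on their tyrosine kinase domains. PDGF-A and PDGF-B are cut into active form inside the cell, whereas PDGF-C and PDGF-D are secreted with a CUB domain that has to be cut off outside it. PDGFRα binds the A, B and C chains, and PDGFRβ binds the B and D chains. In the heart *Pdgfra* marks resident fibroblasts, *Pdgfrb* is found in mural cells and fibroblasts, and *Pdgfb* is known as a product of endothelial cells, macrophages and platelets.

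The libraries held 27851677 to 31072338 counts, and pairs of libraries within a group varied beyond the noise of counting, with a chi-square of 7.41 to 25.0 for each gene compared. Transcripts of the cardiac fibroblast lineage were present in every library, among them *Tcf21* at 303 ± 3.54 CPM (counts after scaling for library size; SD, n = 3) with vehicle and *Tbx20* at 605 ± 72.8 CPM. Of the 7 lineage markers, 1 was higher with TGFβ (*Meox1*) and 3 were lower (*Tcf21*, *Tbx20*, *Hand2*), and of 10 general fibroblast markers 7 were lower by edgeR, with *Fap* and *Lum* falling most, where 20.5% of all genes tested were higher and 20.1% lower. By edgeR none of the 10 rose, against 1 at an unadjusted p under 0.05 and 1 each by DESeq2 and limma-voom. Of 11 TGFβ response genes in the table, 7 rose and 1 fell, among them a rise in *Postn* (log2 fold change 1.55) and the fall in *Col3a1* (-0.94). Cardiomyocyte markers were at or near 0 (*Myh6*, *Actc1*, *Ryr2*, *Myl2* and *Pln* did not reach the filter), apart from *Tnnt2* at 46.7 ± 10.5 CPM with vehicle, and 0 of the 2 tested were called (1 lower at an unadjusted p under 0.05, 1 by DESeq2, 0 by limma-voom). Endothelial markers summed to 444 to 763 CPM and macrophage markers to 208 to 354 CPM per library. Transcripts that mark other cell types were thus present in every library, and the share of such cells was not measured. *Lyz2* made up most of the macrophage sum.

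TGFβ changed 5 of the 7 PDGF genes at an adjusted p under 0.05 (edgeR's quasi-likelihood test, Benjamini-Hochberg adjustment over the 14334 genes tested). *Pdgfc*, *Pdgfrl* and *Pdgfa* rose, *Pdgfra* and *Pdgfd* fell, and *Pdgfrb* and *Pdgfb* did not pass the threshold. Over all genes tested 40.7% were called, 20.5% higher and 20.1% lower, so a call by itself is common in these data. Calls in which the level changed at least as much as 1 log2 unit were made in 6.77% of genes, and among the PDGF genes in *Pdgfc*, *Pdgfra* and *Pdgfrl*. The change in *Pdgfc* was larger in size than that of 99.3% of genes tested, in *Pdgfra* than 96.2%, in *Pdgfrl* than 93.7%, in *Pdgfa* than 83.4%, in *Pdgfd* than 77.8%, in *Pdgfb* than 28.4% and in *Pdgfrb* than 27.0%. The median absolute log2 fold change was 0.21 over all genes tested. As these are cultures measured in bulk, fewer cells that express a gene and less of its mRNA per cell cannot be told apart.

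The sequences upstream of 3 members are shown because *Pdgfc* had the largest rise and *Pdgfra* and *Pdgfd* were the members that fell. *Pdgfb*, *Pdgfrb* and *Pdgfrl* had no entry among the promoters used, so no motif was sought in them. They are the 250 bases before the transcription start in RefSeq on GRCm38.p6, read 5′ to 3′, and span chr5:75152001-75152250 for *Pdgfra*, chr9:6168236-6168485 for *Pdgfd* and chr3:81036166-81036415 for *Pdgfc*, all on the plus strand. Capitals mark matches on either strand to the motifs searched, which were CAGAC (bound by SMAD proteins), TGANTCA (AP-1), the CArG box (serum response factor), GGAATG (TEAD), TATAAA (bound by TBP) and GGGCGG (Sp1).
Pdgfra: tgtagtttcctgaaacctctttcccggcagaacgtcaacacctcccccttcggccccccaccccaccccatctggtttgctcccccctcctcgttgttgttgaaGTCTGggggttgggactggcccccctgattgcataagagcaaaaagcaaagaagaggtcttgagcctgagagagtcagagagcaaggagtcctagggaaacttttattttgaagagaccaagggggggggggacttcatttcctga
Pdgfd: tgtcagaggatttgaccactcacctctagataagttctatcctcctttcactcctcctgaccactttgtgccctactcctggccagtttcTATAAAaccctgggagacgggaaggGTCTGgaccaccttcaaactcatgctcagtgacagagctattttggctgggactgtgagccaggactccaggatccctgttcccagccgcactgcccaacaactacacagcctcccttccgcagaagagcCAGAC
Pdgfc: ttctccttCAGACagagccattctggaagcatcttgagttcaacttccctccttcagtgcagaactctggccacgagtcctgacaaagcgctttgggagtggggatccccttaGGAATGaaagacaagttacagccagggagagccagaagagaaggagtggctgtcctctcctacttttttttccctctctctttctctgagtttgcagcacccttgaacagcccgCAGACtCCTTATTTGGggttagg
Of 32851 RefSeq promoters of the same length, CAGAC was found in 42.2%, GGGCGG in 32.7%, GGAATG in 12.6%, TATAAA in 12.4%, TGANTCA in 6.75% and the CArG box in 1.47%. *Pdgfc* held CAGAC at 242 to 238 and at 23 to 19 bases before the start, GGAATG at 137 to 132, and a CArG box, CCTTATTTGG, at 17 to 8, separated from the nearer CAGAC by 1 base. *Pdgfra* held CAGAC alone, on the reverse strand at 146 to 142 bases before the start. *Pdgfd* held CAGAC at 135 to 131 (reverse strand) and at 5 to 1, and TATAAA at 160 to 155. The matches do not overlap each other, and they describe letters in these windows, not binding. *Pdgfa* has 2 promoters in the same table, with 66.4% and 72.4% G and C against a median of 52.4% over all promoters and 50.8% to 54.4% in the 3 shown. GGGCGG was the single motif found in *Pdgfa*, 1 time in one promoter and 2 times in the other.

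*Pdgfra* encodes PDGFRα, the receptor of the A, B and C chains (ENSMUSG00000029231; chromosome 5, 75152292 to 75198215, plus strand, by GENCODE M21 on GRCm38). Its counts were 19165, 20391 and 21057 with vehicle and 6519, 7675 and 7368 with TGFβ. After scaling to library size these were 602, 688 and 706 CPM with vehicle and 238, 275 and 258 CPM with TGFβ. The lowest vehicle library was far above the highest TGFβ library, and the groups did not overlap. Vehicle cultures held 2.59 times as much *Pdgfra* mRNA as TGFβ cultures (95% interval 2.28 to 2.93), a log2 fold change of -1.37 with a standard error of 0.08 and an adjusted p of 1.77e-05 by edgeR. In CPM it ranked 293 among the genes tested.

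*Pdgfrb* encodes PDGFRβ, the receptor of the B and D chains (ENSMUSG00000024620; chromosome 18, 61045150 to 61085061, plus strand), and was the most abundant member, at rank 77 among the genes tested. It was read at 1105, 1150 and 1117 CPM with vehicle and 1209, 1226 and 1179 CPM with TGFβ. All TGFβ libraries lay above all vehicle libraries by a small gap, and groups that do not overlap were found in 53.3% of genes tested. The estimated log2 fold change, 0.10 with a standard error of 0.05, did not pass the threshold (edgeR adjusted p = 0.116). The 95% interval of the ratio of TGFβ to vehicle ran from 0.997 to 1.15. Replicates differed little, with a coefficient of variation of 2.08% with vehicle and 1.96% with TGFβ.

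The balance of the receptors can be read within a library without any scaling. There were 0.545, 0.598 and 0.632 counts of *Pdgfra* for each count of *Pdgfrb* with vehicle and 0.197, 0.224 and 0.219 with TGFβ. The ratio was lower in every TGFβ library than in every vehicle library, with mean log2 ratios of -2.23 ± 0.10 and -0.76 ± 0.11 and a difference of -1.47 (SD, n = 3 each; p = 0.1 by an exact two-sided permutation test, which cannot go lower with 3 against 3). Per kilobase of exon, *Pdgfra* made up 24.4 ± 1.37% of the summed mRNA of both receptors with vehicle and 10.4 ± 0.634% with TGFβ (SD, n = 3 each). The summed receptor level was 272 ± 8.72 CPM per kb with vehicle and 246 ± 5.17 CPM per kb with TGFβ. These use the union of all annotated exons as the length. With the longest transcript instead, *Pdgfra* made up 31.9% with vehicle and 14.5% with TGFβ.

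*Pdgfrl* encodes a secreted protein that resembles the outer part of the PDGF receptors and lacks a kinase domain (ENSMUSG00000031595; chromosome 8, 40926212 to 40990785, plus strand). Its expression was 28.9, 29.4 and 25.5 CPM with vehicle and 56.1, 57.3 and 62.4 CPM with TGFβ. The 3 TGFβ libraries lay close together and well above the vehicle libraries. The level rose 2.10-fold (95% interval 1.88 to 2.34), a log2 fold change of 1.07 with a standard error of 0.07 and an adjusted p of 2.83e-05 by edgeR. *Pdgfra* counts were 20.8 to 27.6 times those of *Pdgfrl* with vehicle and 4.14 to 4.80 times with TGFβ.

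**Figure D1:**
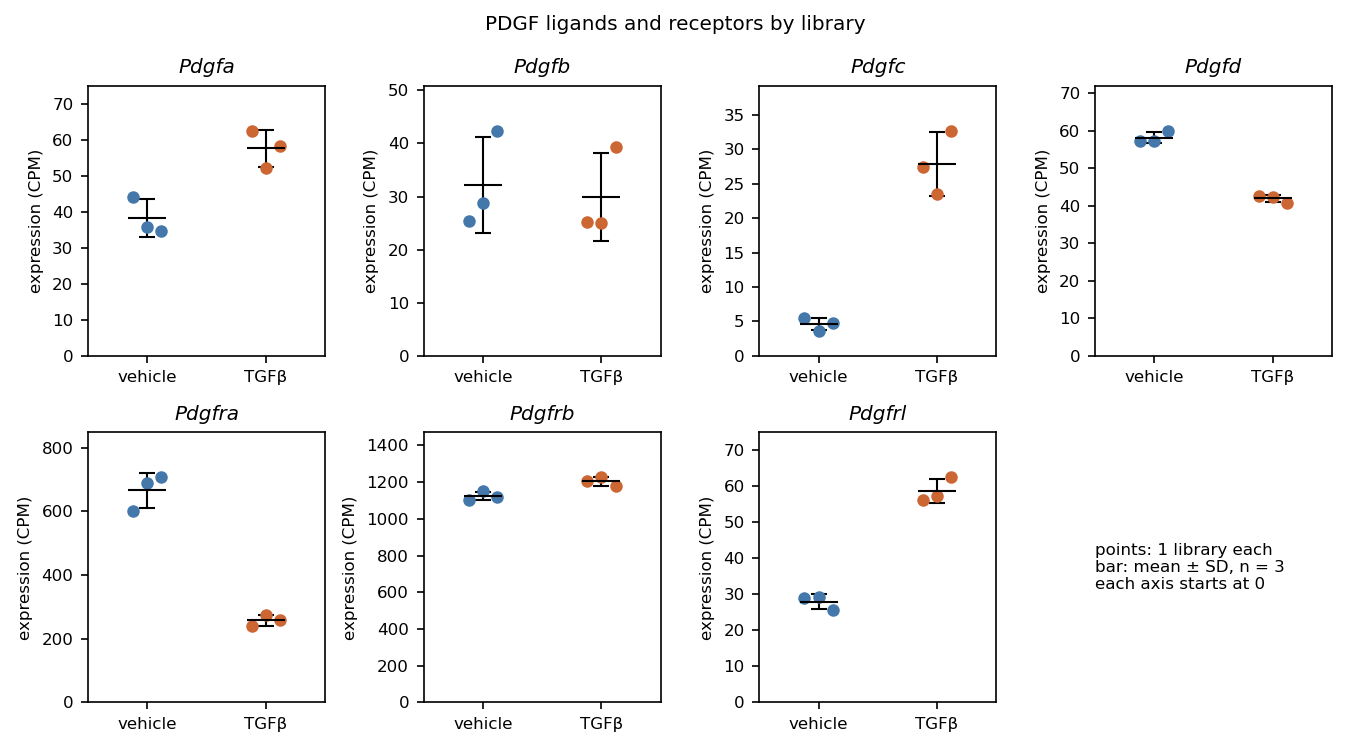
Expression of each PDGF gene in CPM (y axis, from 0) in the 3 vehicle and 3 TGFβ libraries (x axis), with 1 point per library and the mean ± SD (n = 3). *Pdgfra* and *Pdgfd* are lower and *Pdgfc*, *Pdgfrl* and *Pdgfa* higher in all TGFβ libraries, *Pdgfrb* differs by a small gap, and *Pdgfb* overlaps between the groups, with 1 high library in each.

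*Pdgfc* encodes the C chain, a ligand of PDGFRα (ENSMUSG00000028019; chromosome 3, 81036416 to 81214040, plus strand). Only 174, 109 and 143 reads were counted with vehicle, against 749, 655 and 931 with TGFβ. This corresponds to 5.47, 3.68 and 4.79 CPM with vehicle and 27.4, 23.5 and 32.7 CPM with TGFβ. Each TGFβ library stood well above each vehicle library. The rise was 5.97-fold (95% interval 4.57 to 7.80), a log2 fold change of 2.58 with a standard error of 0.17 and an adjusted p of 3.12e-05 by edgeR. Of the 75-base windows of its longest transcript 2.15% also occur in transcripts of another gene. None do for the longest transcripts of the other members, and exons outside these were not searched.

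*Pdgfa* encodes the A chain, also a ligand of PDGFRα (ENSMUSG00000025856; chromosome 5, 138976014 to 138997370, minus strand). It was expressed at 44.3, 35.9 and 34.8 CPM with vehicle and 62.5, 52.4 and 58.4 CPM with TGFβ. The groups did not overlap, although the first listed vehicle library, at 44.3 CPM, was closer to the TGFβ libraries than the other two. The level rose 1.51-fold (95% interval 1.28 to 1.78), a log2 fold change of 0.59 with a standard error of 0.10 and an adjusted p of 0.00291 by edgeR. An annotated gene on the opposite strand, *6330403L08Rik*, shares 813 bases of exon with *Pdgfa* and held 35.7% as many counts. Its mean of 15.1 ± 0.875 CPM in vehicle cultures rose to 19.1 ± 1.26 CPM in TGFβ cultures (SD, n = 3 each), or by 0.34 on the log2 scale (edgeR adjusted p = 0.00758). The difference in *Pdgfa* was 19.5 CPM and that in the antisense gene 4.01 CPM. Whether strand was used in counting is not given in the sources used here. It is thus not known whether reads of both genes were told apart over the shared bases.

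*Pdgfd* encodes the D chain, a ligand of PDGFRβ (ENSMUSG00000032006; chromosome 9, 6168584 to 6378850, plus strand). Its level was 57.4, 57.3 and 60.0 CPM with vehicle and 42.7, 42.4 and 40.9 CPM with TGFβ. Replicates were tight in both groups and the groups did not overlap. Vehicle cultures held 1.39 times as much (95% interval 1.30 to 1.48), a log2 fold change of -0.47 with a standard error of 0.04 and an adjusted p of 0.000112 by edgeR.

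*Pdgfb* encodes the B chain, the ligand of both receptors (ENSMUSG00000000489; chromosome 15, 79995874 to 80014977, minus strand). It was read at 25.3, 28.9 and 42.3 CPM with vehicle and 25.2, 25.0 and 39.4 CPM with TGFβ. The spread within a group, with a coefficient of variation of 27.9% with vehicle and 27.7% with TGFβ, was larger than the difference between the groups. The estimated log2 fold change, -0.11 with a standard error of 0.23, did not pass the threshold (edgeR adjusted p = 0.747). The 95% interval of the ratio ran from 0.640 to 1.35, so a fall or a rise within these bounds is not excluded. The direction was not stable: the log2 fold change was 0.14 without the high vehicle library, -0.36 without the high TGFβ library, and 0.0015 and 0.0070 without the first and the second listed TGFβ library.

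The libraries high in *Pdgfb* were also high in endothelial markers. Given in the same order as the *Pdgfb* values, the 10 markers summed to 491, 556 and 763 CPM with vehicle and 444, 496 and 626 CPM with TGFβ. Of the 10, 9 were highest in the third listed library of both groups, the exception being *Tek*. Some fibroblast markers were highest there too, namely *Fap*, *Lum*, *Dcn*, *Col3a1* and *Col1a1*. *Fap* was at 25.3, 33.5 and 46.3 CPM with vehicle and 10.2, 13.0 and 19.9 CPM with TGFβ. *Ddr2*, *S100a4* and *Vim* were lowest there, and *Col1a2* and *Thy1* were highest there with vehicle only. Macrophage markers summed to 244, 255 and 354 CPM with vehicle and 208, 223 and 311 CPM with TGFβ, in the same order. Most of this sum was *Lyz2*, at 201, 206 and 290 CPM with vehicle and 172, 176 and 258 CPM with TGFβ. *Ptprc* averaged 3.64 CPM with vehicle and 2.99 CPM with TGFβ. *Pdgfb* counts amounted to 5.16%, 5.19% and 5.55% of the endothelial counts with vehicle and 5.68%, 5.04% and 6.30% with TGFβ, and these shares overlapped between the groups (two-sided exact permutation test, p = 0.5). None of the 10 endothelial markers was called by edgeR, DESeq2 or limma-voom, and 0 had an unadjusted p under 0.05. The part of these cells in the *Pdgfb* counts was not tested. Beside the marker counts that follow, 20.5% of all genes tested were higher and 20.1% lower. Of the 9 macrophage markers edgeR called 0 higher (0 at an unadjusted p under 0.05, 0 by DESeq2 and limma-voom) and 2 lower (*Mrc1* and *Cd14*), of which *Cd14* was lost with limma-voom and in 4 of the 6 fits that left out a library (edgeR adjusted p from 0.0553 to 0.135). Platelet and megakaryocyte markers summed to 18.4 to 22.2 CPM, 3 of the 6 passed the filter, 1 was higher (*Gp1bb*, a call lost in 5 of the 6 fits without a library) and 1 lower (*Itga2b*, lost with DESeq2 and in 4 of those fits), and *Ppbp* and *Gp9* were at or near 0.

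**Figure D2:**
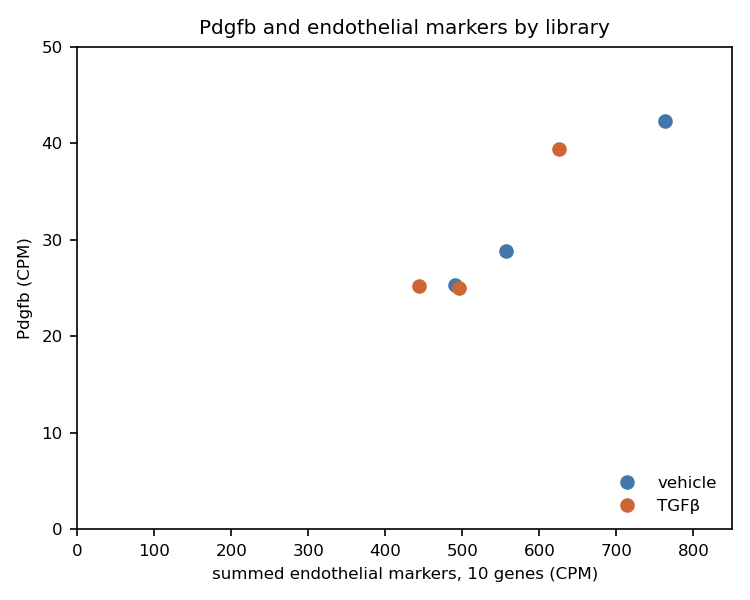
*Pdgfb* in CPM (y axis) against the summed CPM of the 10 endothelial markers (x axis), 1 point per library, both axes from 0. The libraries at 42.3 and 39.4 CPM of *Pdgfb* are those with the highest endothelial sums of their groups, 763 and 626 CPM.

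Between genes, levels were compared per kilobase of exon, with the union of all annotated exons as the length. With vehicle the order of the mean levels was *Pdgfrb* (205 CPM per kb), *Pdgfra* (66.4), *Pdgfd* (18.5), *Pdgfa* (12.3), *Pdgfrl* (8.95), *Pdgfb* (7.73) and *Pdgfc* (0.913). The ranges over libraries overlapped for *Pdgfrl* and *Pdgfb* and not for other neighbours. With TGFβ the order was *Pdgfrb* (219.9 CPM per kb), *Pdgfra* (25.7), *Pdgfrl* (18.8), *Pdgfa* (18.5), *Pdgfd* (13.3), *Pdgfb* (7.18) and *Pdgfc* (5.47), with overlapping ranges for *Pdgfrl* and *Pdgfa* and for *Pdgfb* and *Pdgfc*. *Pdgfrl* and *Pdgfa* thus stood above *Pdgfd* with TGFβ and below it with vehicle. With the longest transcript as the length, *Pdgfa* and *Pdgfd* had the same mean level with vehicle (18.6 CPM per kb each), and the rest of the order was as above.

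The summed ligand level was 39.4 ± 1.99 CPM per kb with vehicle and 44.5 ± 3.40 CPM per kb with TGFβ (SD, n = 3 each). The libraries ran from 37.3 to 41.3 CPM per kb with vehicle and from 40.8 to 47.6 CPM per kb with TGFβ, so the groups overlapped in the sum. With the longest transcript as the length they did not, at 46.5 to 51.8 CPM per kb with vehicle and 54.1 to 64.1 CPM per kb with TGFβ. With the exon union as the length, *Pdgfd* gave 46.9 ± 1.52% of the summed ligand level with vehicle and 30.1 ± 2.84% with TGFβ. *Pdgfa* gave 31.2 ± 4.46% and 41.7 ± 2.63%, and *Pdgfb* 19.5 ± 4.70% and 16.0 ± 3.41%. *Pdgfc* gave 2.31 ± 0.392% with vehicle and 12.2 ± 1.13% with TGFβ (SD, n = 3 each for all shares). With the longest transcript as the length, *Pdgfd* gave 37.6% with vehicle and 22.7% with TGFβ, and *Pdgfa* 37.7% and 47.2%. The largest ligand share with vehicle thus depended on the length used. Counted within each library, there were 0.0642 to 0.0953 reads of *Pdgfc* for each read of *Pdgfd* with vehicle and 0.553 to 0.798 with TGFβ.

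**Figure D3:**
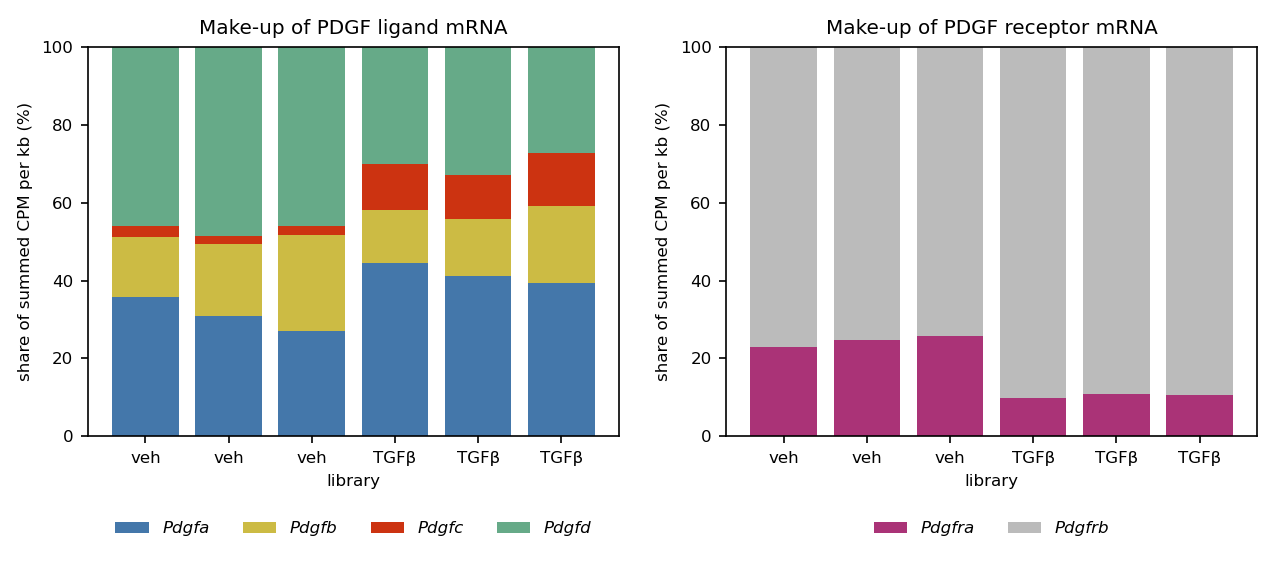
Share of each gene (y axis, percent) in the summed CPM per kb of the 4 ligands (left) and of the 2 receptors (right), 1 bar per library. The length is the exon union. In all 3 TGFβ libraries *Pdgfc* and *Pdgfa* take a larger and *Pdgfd* a smaller part of the ligand mRNA, and *Pdgfra* falls from 24.4% to 10.4% of the receptor mRNA on average.

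**Figure D4:**
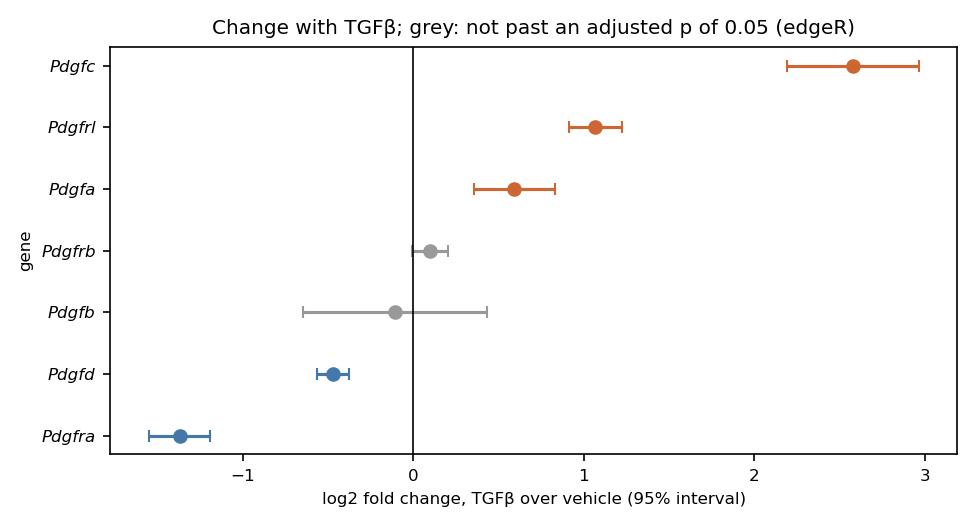
Log2 fold change of TGFβ over vehicle with its 95% interval from edgeR (x axis) for each PDGF gene (y axis), grey where the adjusted p is not under 0.05. The intervals of *Pdgfrb* (-0.0049 to 0.20) and *Pdgfb* (-0.64 to 0.43) include 0 and the other 5 do not.

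For each member, the genes with the closest course over the 6 libraries were sought in the 10373 genes whose mean reached 5 CPM, by the root mean square difference of log2 CPM centred on each gene's mean. Closest to *Pdgfra* were *Slfn9* (difference 0.06, log2 fold change -1.37) and *Fgf7*, a fibroblast-derived growth factor for epithelial cells (0.06, -1.37). Closest to *Pdgfc* were *Acan*, which encodes the cartilage proteoglycan aggrecan (0.18, 2.35), and *Wisp1*, which encodes a matricellular protein (0.20, 2.34). The nearest neighbours of *Pdgfrl* were *Garem2* (0.06, 1.01) and *Jup*, the junction protein plakoglobin (0.06, 1.03), and those of *Pdgfd* were *Adcy6*, an adenylyl cyclase (0.01, -0.49), and *Zfp346* (0.02, -0.47). *Thnsl1* (0.06, 0.59) and *Gss*, glutathione synthetase (0.07, 0.57), ran closest to *Pdgfa*. *Trp53i11* (0.03, -0.11) and *Gimap6* (0.04, -0.08) ran closest to *Pdgfb*, and the tumour suppressor *Nf2* (0.01, 0.09) and *Brd1* (0.01, 0.09) to *Pdgfrb*. With 6 libraries and this many genes, close matches exist for nearly any course, and these names are a description.

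Genes that act around the PDGF system or belong to related families were described by 5 lists of 75 gene symbols. Of these 72 were tested. By edgeR 10 of the 72 rose (13.9%, against 20.5% of all genes tested) and 26 fell (36.1%, against 20.1%). The lists were chosen with earlier results of these data known, so these shares are a description. Without the second listed vehicle library 5 were called higher, and without the first listed TGFβ library 6.

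Among 10 genes that process or bind PDGF ligands, 2 rose, 2 fell and 6 did not pass the threshold. These counts are near the share of all genes tested, of which 20.5% were higher and 20.1% lower. The median log2 fold change was 0.08 (all genes tested: -0.0013). *Furin*, a protease that cuts PDGF-A and PDGF-B, was at 190.4, 191 and 199.9 CPM with vehicle and 257, 265 and 292 CPM with TGFβ. All TGFβ libraries lay above the vehicle libraries, with a log2 fold change of 0.49 (adjusted p = 0.000453 by edgeR). *Plat*, tissue plasminogen activator, which cuts the CUB domain from PDGF-C, was at 110.4, 110.3 and 113 CPM with vehicle and 67.0, 68.2 and 70.9 CPM with TGFβ. It fell in all libraries, with a log2 fold change of -0.69 (adjusted p = 1.58e-05 by edgeR), opposite in sign to *Pdgfc*. *Plau*, urokinase, which can cut PDGF-D, averaged 43.7 ± 15.7 CPM in vehicle and 35.5 ± 13.8 CPM in TGFβ cultures (SD, n = 3 each) and was not called (log2 fold change -0.30, edgeR adjusted p = 0.475). It was highest in the same libraries as *Pdgfb*. *Nrp1*, a co-receptor, fell (log2 fold change -0.60), and *Pcsk5*, a furin-like protease, rose (0.67, adjusted p = 0.0287 by edgeR), the latter call being lost without any one of the vehicle libraries (edgeR adjusted p from 0.0564 to 0.0866). One TGFβ library, at 101 CPM, decided the size of the *Pcsk5* rise, which was 0.36 on the log2 scale without it.

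Of 19 effectors that bind activated receptors or act directly below them, 2 rose and 9 fell (all genes tested: 20.5% higher, 20.1% lower). Their median log2 fold change was -0.13. *Pik3cb*, a catalytic subunit of PI3-kinase, stood apart, at 28.1, 26.0 and 25.4 CPM with vehicle and 63.8, 59.8 and 50.3 CPM with TGFβ. Every TGFβ library lay well above the vehicle libraries, with a log2 fold change of 1.13 with a standard error of 0.09 (edgeR adjusted p = 7.46e-05). The other rise, in the adaptor *Crk* (0.11, adjusted p = 0.0416 by edgeR), was lost in 10 of 12 refits, among them DESeq2 and each left-out library. The falls included that of the docking protein *Gab1* (-0.73, adjusted p = 0.00146 by edgeR) and those of *Stat3*, *Stat5a*, *Stat5b*, *Pik3r1*, *Shc1*, *Nck1* and *Plcg1*, with log2 fold changes from -0.46 to -0.20. *Src*, *Grb2*, *Sos1*, *Sos2*, *Pik3ca*, *Pik3r2*, *Crkl* and *Nck2* did not pass the threshold.

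Of 14 genes listed as dampening receptor signalling, 5 rose and 3 fell (all genes tested: 20.5% higher, 20.1% lower). Their median log2 fold change was 0.01. The rises were small, at most 0.33 in *Rasa1*, a Ras GTPase-activating protein that docks on PDGFRβ, and 0.27 in the phosphatase *Acp1*. *Ptpn11* (0.14, adjusted p = 0.0294 by edgeR) was among the rises, and whether it dampens signalling in these cells was not tested. The count of rises was 2 without the second listed vehicle library, 3 without the third and 2 without the first listed TGFβ library. The largest fall was that of *Socs3*, a feedback inhibitor of cytokine signalling, from 117, 103 and 118 CPM with vehicle to 44.0, 44.2 and 51.3 CPM with TGFβ. The groups were far apart, with a log2 fold change of -1.27 with a standard error of 0.08 (edgeR adjusted p = 2.62e-05). *Socs1* also fell (-0.56, adjusted p = 0.0124 by edgeR), as did *Ptpn1* (-0.43), a phosphatase of receptor tyrosine kinases.

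Among 15 genes of ERK output and feedback, a pathway that PDGF and other growth factors share, 7 fell and edgeR called 0 higher. Over all genes tested 20.1% were lower and 20.5% higher. The list had a median log2 fold change of -0.25. At an unadjusted p under 0.05, 3 were higher, against 1 called by DESeq2, 0 by limma-voom and 2 by edgeR without the filter. Without the second listed TGFβ library edgeR called 3 higher, and without the third listed vehicle library 1. *Fos*, an immediate early gene, was at 217, 174 and 172 CPM with vehicle and 76.5, 53.6 and 55.5 CPM with TGFβ. No TGFβ library reached any vehicle library, with a log2 fold change of -1.60 and a standard error of 0.15 (edgeR adjusted p = 0.000166). *Ccnd1*, cyclin D1, fell by 1.19 on the log2 scale (adjusted p = 0.000118 by edgeR) and *Egr1* by 0.98 (adjusted p = 0.000468 by edgeR). The feedback inhibitors *Dusp6* (-0.74), *Spry2* (-0.70), *Spry4* (-0.63) and *Spred1* (-0.17) fell too. *Spry1* and *Myc* were not called, at log2 fold changes of 0.14 and 0.19.

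Another list held the related VEGF family and the class III receptor tyrosine kinases to which the PDGF receptors belong. Of its 16 genes found among the counts, 14 were tested, 1 rose and 5 fell (all genes tested: 20.5% higher, 20.1% lower). The list had a median log2 fold change of -0.44. *Vegfa*, the main angiogenic ligand, was at 145, 135 and 126 CPM with vehicle and 291, 275 and 273 CPM with TGFβ. Every TGFβ library was clearly above the vehicle libraries, with a log2 fold change of 1.04 with a standard error of 0.06 (edgeR adjusted p = 1.79e-05). *Vegfd*, a lymphangiogenic ligand that like PDGF-C and PDGF-D is secreted with ends that are cut off, was at 385, 372 and 334 CPM with vehicle and 109, 110.3 and 79.3 CPM with TGFβ. It fell in all libraries, with a log2 fold change of -1.87 with a standard error of 0.13 (edgeR adjusted p = 3.69e-05). *Vegfc* (-1.02), *Vegfb* (-0.65), *Kitl* (-0.87) and *Il34* (-0.92) fell as well. The receptors *Flt1*, *Kdr*, *Flt4*, *Kit* and *Csf1r* did not pass the threshold, and *Flt3* and *Csf2* did not reach the filter. *Csf2* was in the list although it belongs to neither family.

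**Figure D5:**
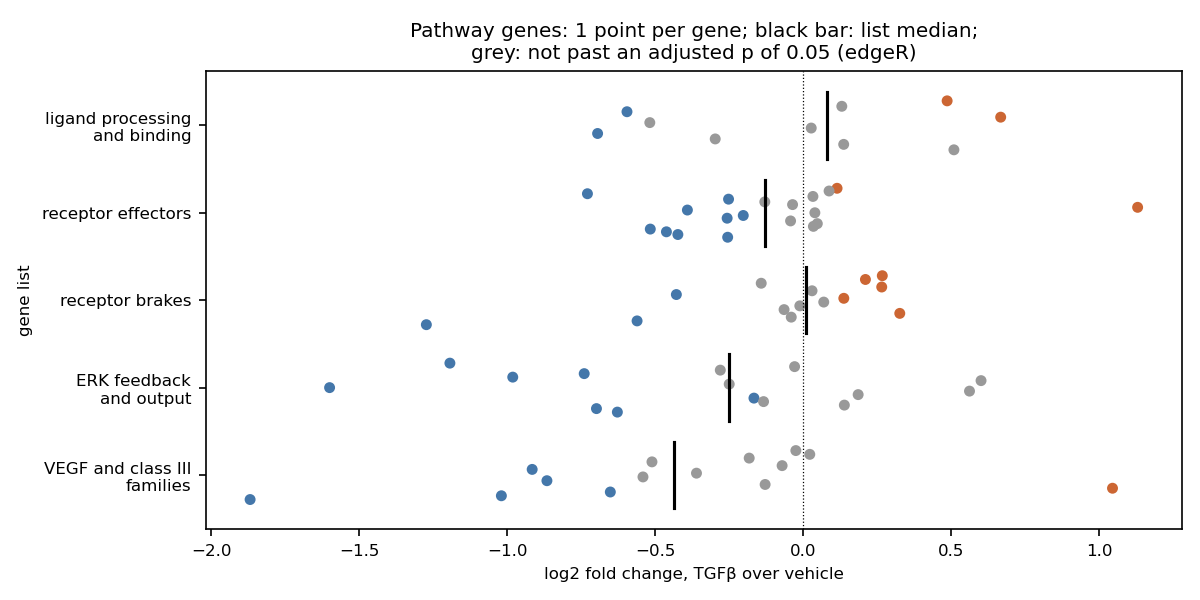
Log2 fold change of TGFβ over vehicle (x axis) for the tested genes of the 5 pathway lists (y axis), 1 point per gene, with the list median as a black bar and grey where the adjusted p is not under 0.05 by edgeR. The ERK list has 7 called genes, all lower, with *Fos* at -1.60, and the effector list has a single point beyond 1, *Pik3cb* at 1.13.

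Markers of pericytes and smooth muscle, cells that carry PDGFRβ in the heart, moved in both directions. They summed to 373 to 453 CPM with vehicle and 279.6 to 364 CPM with TGFβ, and the groups did not overlap. Without *Notch3* the sums were 168 to 248 CPM with vehicle and 217 to 315 CPM with TGFβ, so this 1 gene set the direction of the sum. *Higd1b* was near 0 in both groups. Of the 11, 10 were tested, 3 rose and 1 fell, with a median log2 fold change of 0.18. Over all genes tested 20.5% were higher and 20.1% lower, so these counts are near the common share. *Cspg4*, the pericyte proteoglycan NG2, was at 18.9, 16.6 and 22.9 CPM with vehicle and 56.6, 40.0 and 63.3 CPM with TGFβ (log2 fold change 1.45, adjusted p = 0.000614 by edgeR). *Notch3* was at 191, 224 and 205 CPM with vehicle and 60.3, 63.0 and 48.7 CPM with TGFβ (log2 fold change -1.85, adjusted p = 1.58e-05 by edgeR). *Cnn1*, a contractile protein of smooth muscle, and *Lmod1* were the other genes that rose, the latter with overlapping groups. *Rgs5*, *Abcc9*, *Kcnj8*, *Mcam*, *Des* and *Myh11* were not called. The part of these cells in the *Pdgfrb* counts was not tested.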

How the data were processed

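Stranded mRNA libraries were read by the authors in 75-base single-end mode, with mm10 as the genome and DESeq2 as the test. The deposited table holds raw counts of reads per gene and library, which were used here. Its other columns, not used, hold the authors' normalized mean, fold changes and p-values. The aligner, counting tool, annotation and strand setting are not given in the sources used here. Count columns name the group and no replicate number, so libraries are given in the order of the table.

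Counts were scaled with TMM factors, filtered with filterByExpr and tested with edgeR 4.0.16 (R 4.3.3), with no covariate, Benjamini-Hochberg adjustment over 14334 genes and a threshold of 0.05. The standard error is the log2 fold change over the square root of F. CPM are counts over TMM-scaled library sizes. For single values the exact permutation test, two-sided, was used. Positions and lengths are from GENCODE M21 (GRCm38), promoters from RefSeq. Intervals rest on the spread between 3 libraries per group, moderated in the edgeR fit by that of all genes tested. Only the edgeR, DESeq2 and limma-voom fits were tested on simulated counts, with far fewer changed genes than were called here.

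Named genes are the members, the up to 2 largest called rises and falls per list (mean of at least 1 CPM), and the 2 nearest genes per member; others were named after their values were seen, and some genes are not reported here. The members and lists were chosen with earlier results of these data known, and the motifs and the endothelial share after the values were seen. Alternatives were RLE or upper quartile scaling, DESeq2 1.42.0, limma-voom (limma 3.58.1), no filter, 1 CPM in 3 libraries, a threshold of 0.01, each library left out, and the longest transcript as length.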

Additional observations from a re-analysis of the deposited data

How the results depend on the processing

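In all 12 refits by scaling, tool, filter and left-out library, the 5 called PDGF genes kept direction and an adjusted p under 0.05. They were *Pdgfc*, *Pdgfrl*, *Pdgfa*, *Pdgfra* and *Pdgfd*. The highest adjusted p was 0.0148 (*Pdgfa*, edgeR without the first listed TGFβ library). A threshold of 0.01 was applied to the main edgeR fit only, where all 5 passed it. *Pdgfa* did not pass 0.01 in that refit or without the second listed vehicle library (edgeR adjusted p = 0.0134). *Pdgfrb* stayed positive and uncalled (adjusted p from 0.0943 with limma-voom to 0.287 with edgeR). *Pdgfb* reversed when a library was left out, with log2 fold changes from -0.36 to 0.14. At a threshold of 0.01 edgeR called 3595 genes, 1855 higher and 1740 lower. With a library left out, 5 to 11 pathway genes were higher. The *Pdgfra* to *Pdgfrb* difference lay between -1.53 and -1.41 without each library. With the longest transcript as length, vehicle levels were 18.6 (*Pdgfa*), 10.9 (*Pdgfb*), 1.32 (*Pdgfc*), 97.3 (*Pdgfra*) and 13.5 (*Pdgfrl*) CPM per kb. No paired analysis was possible because the count columns carry no replicate numbers. In the pericyte and smooth muscle sum the difference of -75.5 CPM became 73.7 CPM without *Notch3*, an alternative chosen after seeing the data. *Pdgfc* had the fewest reads, 109 to 174 with vehicle, and the effect of depth was not tested.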
